A study of Mus musculus with 6 samples.

Results

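The pancreas digests dietary fat with a small set of secreted enzymes, and 6 of their genes were followed here in purified islets: Pnlip, Pnliprp1, Pnliprp2, Cel, Clps and Pla2g1b. A gene was taken from probes listed for its symbol and for no other gene. By that rule 5 of the 6 genes were measured, each by 1 probe, out of 20204 genes with a probe of their own. Pnlip, the classical pancreatic triglyceride lipase, is not listed for any probe and has no value here. All 5 measured genes rose in islets of mTR-/-G4 mice compared with wild-type islets, by 2.12-fold to 6.22-fold.

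Islets were purified after collagenase digestion from 3 mTR-/-G4 and 3 wild-type mice, and the study asked how short telomeres alter gene expression in islets. mTR-/-G4 mice lack the RNA component of telomerase in every cell and were bred without it for 4 generations, so that telomeres shortened. All 6 were male C57BL/6 mice of 15 months. This strain was chosen by the study because its islets are larger and yield enough RNA. Total RNA of each sample was hybridized to 1 exon array (Affymetrix), and the samples of a genotype are called a, b and c as in the labels. The labels do not say whether samples of the same letter belong together.

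Exocrine acinar cells, which surround the islets, make these enzymes and store them in zymogen granules until a meal. Triglyceride lipases act at the surface of fat droplets, where bile salts would wash pancreatic lipase off without its protein cofactor, colipase. Other members of the set cleave cholesteryl esters and phospholipids. The genes are in wide use as markers of acinar cells and not of islet endocrine cells. In a bulk sample, more acinar cells and more RNA per acinar cell cannot be told apart.

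The bases before the transcription start are shown for the measured genes with an entry in the RefSeq promoter table of build GRCm38.p6, because these genes moved together on the arrays. Clps has no entry. Each sequence is 120 bases long, is written 5′ to 3′ on the strand of its gene and ends at the base before the start. Capitals mark matches to any of 4 motifs, searched on both strands. CACCTG, an E-box, and TTTCCC are the letters bound by PTF1, the acinar complex of Ptf1a and Rbpjl. CAAGGTCA is bound by the nuclear receptor Nr5a2, and TATAAA is the TATA box. The coordinates are chr19:58728767-58728886 and chr19:58759603-58759722 on the plus strand for Pnliprp1 and Pnliprp2, chr2:28563404-28563523 on the minus strand for Cel and chr5:115466022-115466141 on the plus strand for Pla2g1b.
Pnliprp1: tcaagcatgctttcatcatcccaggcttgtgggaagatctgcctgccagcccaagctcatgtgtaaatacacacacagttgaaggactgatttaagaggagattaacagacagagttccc
Pnliprp2: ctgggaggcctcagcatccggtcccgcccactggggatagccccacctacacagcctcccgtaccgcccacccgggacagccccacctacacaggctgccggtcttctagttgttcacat
Cel: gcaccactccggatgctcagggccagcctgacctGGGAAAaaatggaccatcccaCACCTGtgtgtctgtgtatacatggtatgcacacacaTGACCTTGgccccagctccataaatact
Pla2g1b: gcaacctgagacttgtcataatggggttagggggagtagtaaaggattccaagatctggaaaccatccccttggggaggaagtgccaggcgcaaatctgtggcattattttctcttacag

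Cel alone of these 4 held matches in the 120 bases. Its TTTCCC lay 86 to 81 bases before the start and its CAAGGTCA 28 to 21 bases before it, both on the opposite strand, with an E-box at 65 to 60 bases. In the 250 bases before the start Cel held 3 further E-boxes, which began 170, 154 and 134 bases from it. Pnliprp2 held 1 E-box at 228 to 223 bases, and Pnliprp1 and Pla2g1b held no match. Within 120 bases, 8.43% of 32851 mouse promoters hold the E-box, 10.5% TTTCCC, 0.539% CAAGGTCA and 6.34% TATAAA. Within 250 bases the shares are 17.2%, 21.9%, 1.33% and 12.4%. These are matches of letters only, and binding was not measured.

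Pnliprp1 encodes a relative of pancreatic lipase with little known activity on triglycerides. Its log2 signal was 9.01, 8.23 and 7.79 in mTR-/-G4 samples a, b and c, against 7.22, 6.62 and 6.67 in wild-type samples a, b and c. The lowest mTR-/-G4 sample lay 0.58 above the highest wild-type sample, so the genotypes did not overlap. The signal averaged 8.34 ± 0.62 in mTR-/-G4 and 6.84 ± 0.33 in wild-type islets (SD, n = 3 each), and the rise was 2.84-fold (95% interval 1.7 to 4.76; limma, unadjusted p = 0.0019, adjusted p = 0.109).

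Pnliprp2 encodes a lipase of broad range that also cleaves phospholipids and galactolipids. It was at 11.92, 10.92 and 10.52 in mTR-/-G4 samples a, b and c, and at 9.30, 8.19 and 7.96 in wild-type samples a, b and c. The gap between the genotypes, 1.22 on the log2 scale, was the widest of the 5 genes. The rise of 2.64 (SE 0.45), or 6.22-fold (95% interval 2.99 to 12.9), ranked 8 among the 20204 genes by log2 fold change (limma, unadjusted p = 0.000574, adjusted p = 0.0933).

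Cel encodes carboxyl ester lipase, the bile salt-stimulated enzyme that cleaves cholesteryl esters. Its log2 signal was 12.84, 12.34 and 12.08 in mTR-/-G4 samples a, b and c, against 11.41, 10.45 and 10.39 in wild-type samples a, b and c. Every mTR-/-G4 sample was above every wild-type sample, by at least 0.67. By their mean over the 6 arrays, 99.0% of all probes were dimmer than this one. The rise was 3.19-fold (95% interval 1.91 to 5.3; limma, unadjusted p = 0.000997, adjusted p = 0.0946).

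Clps encodes colipase, the cofactor that holds pancreatic lipase on fat droplets. It was at 10.95, 10.84 and 10.60 in mTR-/-G4 samples a, b and c, and at 10.17, 9.55 and 9.41 in wild-type samples a, b and c. The mTR-/-G4 samples lay within 0.35 of each other, the narrowest range among the 5 genes. Clps had the smallest rise of the 5, 2.12-fold (95% interval 1.51 to 2.99; limma, unadjusted p = 0.00121, adjusted p = 0.0995), and its genotypes were 0.43 apart at their nearest samples.

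Pla2g1b encodes the pancreatic phospholipase A2, which is secreted as a proenzyme and cut to its active form by trypsin. Its log2 signal was 10.08, 9.85 and 9.02 in mTR-/-G4 samples a, b and c, against 8.10, 7.09 and 6.68 in wild-type samples a, b and c. Here sample c was the lowest of the mTR-/-G4 samples, and still 0.92 above the highest wild-type sample. The rise was 2.36 on the log2 scale, or 5.13-fold (95% interval 1.40 to 3.32 on the log2 scale; limma, unadjusted p = 0.000631, adjusted p = 0.0933).

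**Figure D1:**
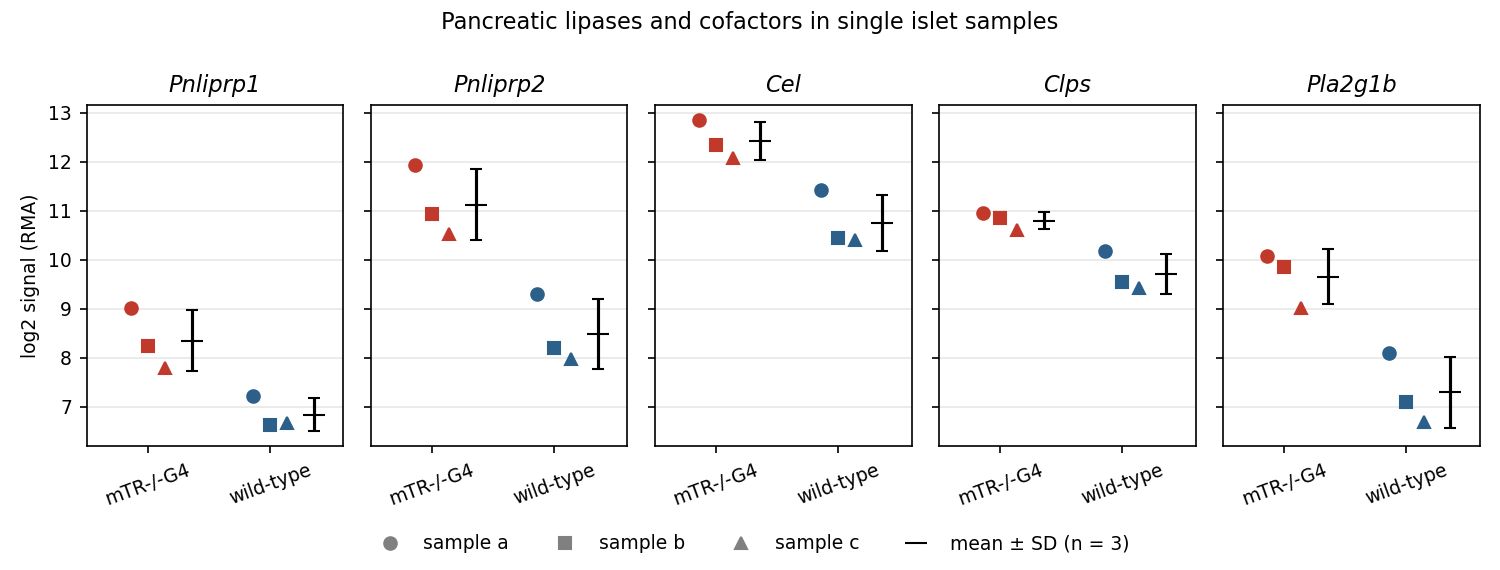
Log2 signal (RMA) of Pnliprp1, Pnliprp2, Cel, Clps and Pla2g1b in each islet sample, with mTR-/-G4 in red left of wild-type in blue, a marker shape for each sample letter and the mean ± SD (n = 3) beside them. In all 5 panels the 3 mTR-/-G4 points lie above the 3 wild-type points, and sample a is the highest point of both genotypes.

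By the rule of the study, more than 1.5-fold with an unadjusted p under 0.05 (here from limma), 5 of the 5 measured genes rose and 0 fell. Over all 20204 genes 1.94% rose and 1.64% fell by this rule. At a fold above 2 all 5 still passed, against 0.386% of all genes. The genotypes did not overlap for any of the 5, with every mTR-/-G4 sample higher, as was so for 25.0% of all genes. The median log2 fold change was 1.67 for the 5 genes and 0.10 for all genes. No member had an adjusted p under 0.05 over all probes, and 1 probe of the table did. Without sample a of both genotypes, an alternative added after the data were seen, limma gave 2 members an adjusted p under 0.05, Pnliprp2 (0.0387) and Cel (0.0396). The p-values rest only on these 3 and 3 samples, and limma draws the variance of each gene toward that of all probes. By the methods' t-test, which uses each gene's own spread alone, the members' unadjusted p was 0.011 to 0.0203 (adjusted p 0.247 to 0.253).

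The members also varied together within a genotype. Sample a was the highest sample of both genotypes for all 5 genes, by 0.15 to 0.80 above the mTR-/-G4 mean and by 0.38 to 0.82 above the wild-type mean. Sample c was the lowest mTR-/-G4 sample for all 5 and the lowest wild-type sample for all but Pnliprp1, which was lowest in wild-type b. The mean signal of the 5 genes was 10.47 ± 0.48 in mTR-/-G4 and 8.61 ± 0.55 in wild-type samples (SD, n = 3 each). Over the 6 arrays, each gene followed the mean of the other measured members with a Pearson r of 0.976 for Pnliprp1, 0.988 for Clps, 0.989 for Pla2g1b and 0.996 for Cel and Pnliprp2. These are descriptions over 6 arrays that share the genotype difference, without a test.

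The acinar markers that encode no lipase moved on the same arrays. Of 28 such genes 18 were measured, and 15 of them rose, 1 fell and 2 did not pass, with a median log2 fold change of 1.38. Gp2, a glycoprotein of the zymogen granule membrane, rose by 3.54 (SE 0.54), Cela1, an elastase, by 2.73 (SE 0.62), Cuzd1, a zymogen granule protein, by 2.70 (SE 0.53) and Tff2, a trefoil peptide, by 2.38 (SE 0.56). Of the list's 4 transcription factors, Rbpjl was higher by 1.24 (SE 0.47), Bhlha15 was lower at -0.60 (SE 0.18), and Ptf1a and Nr5a2 had 0.19 and 0.18. The probes of Ptf1a and Nr5a2 were dim, brighter than only 4.5% and 29.9% of all probes, and a change of these genes may not be measurable there. The mean signal of the 18 markers was 9.38, 8.76 and 8.38 in mTR-/-G4 samples a, b and c, and 7.94, 7.11 and 7.02 in wild-type samples a, b and c. Their difference of 1.48 had p = 0.1 in a two-sided exact permutation test, the smallest that 3 against 3 allow. With this mean as a covariate in limma, 1059 of all 34502 probes passed as higher and 1042 as lower. Of the 5 lipase genes 0 passed. Their log2 fold changes were 0.13 (SE 0.29) for Pnliprp1, 0.26 (SE 0.27) for Clps, 0.27 (SE 0.24) for Cel, 0.54 (SE 0.23) for Pnliprp2 and 0.58 (SE 0.36) for Pla2g1b. Since every mTR-/-G4 sample was also above every wild-type sample in this mean, its part in the rise and that of genotype cannot be told apart.

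**Figure D2:**
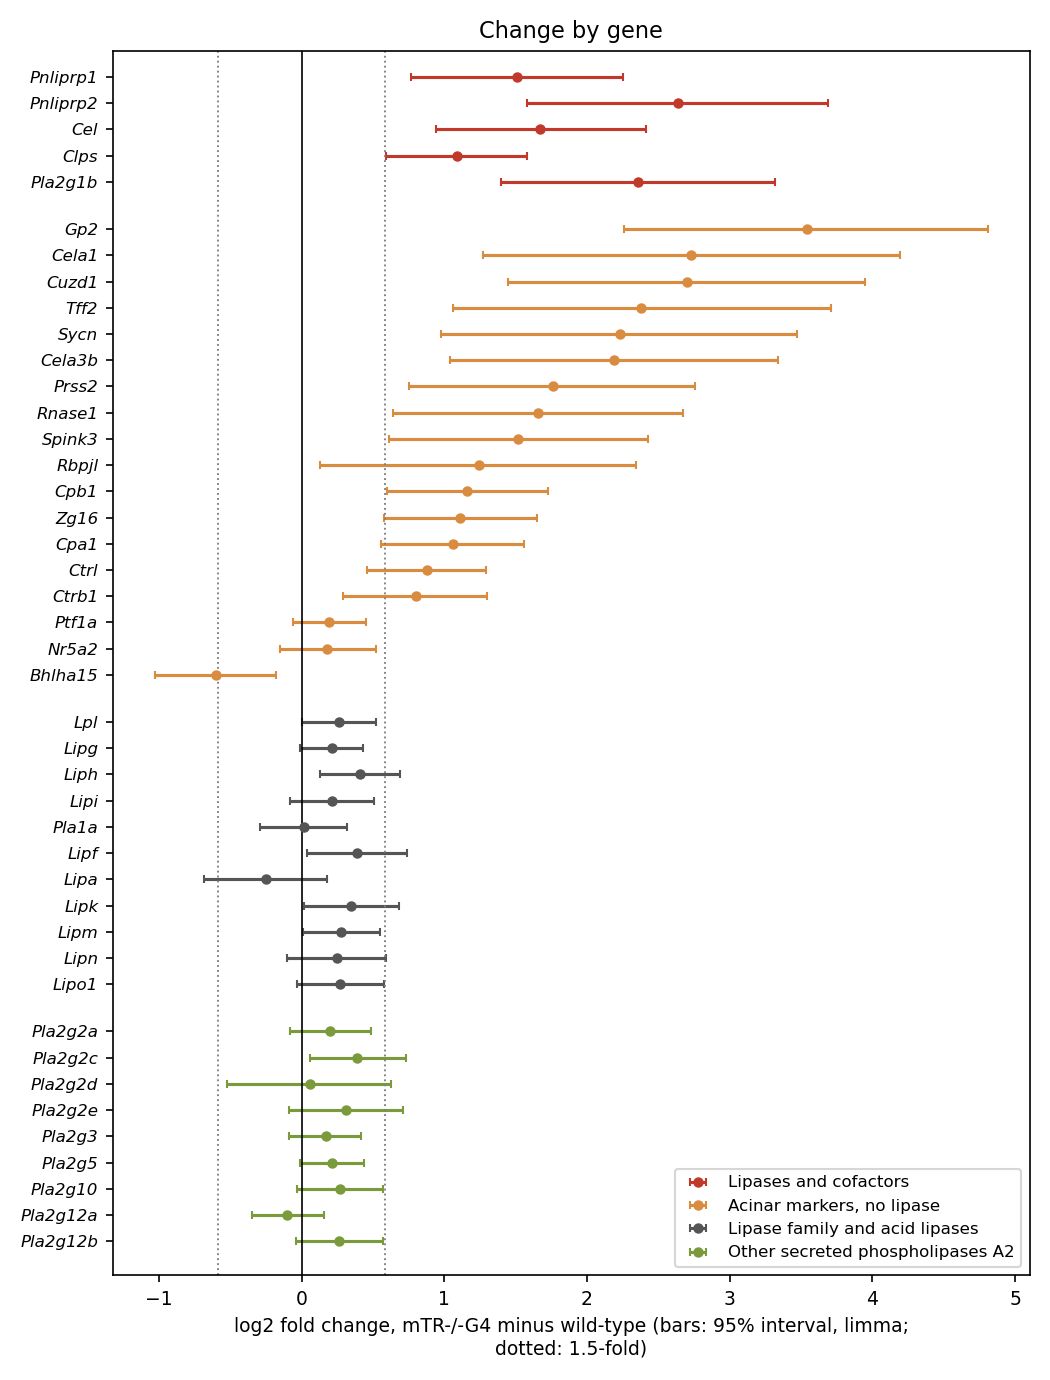
Log2 fold change of each measured gene, mTR-/-G4 minus wild-type, with its 95% interval by limma, for the lipases and cofactors, the acinar markers without them, the other lipases and the other secreted phospholipases A2. Dotted lines mark 1.5-fold in either direction. The 5 members lie between 1.09 and 2.64, and no plotted lipase or secreted phospholipase outside them exceeds 0.41.

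Set against these markers, the rise of every member lay within the markers' own range of -0.60 to 3.54. When the mean of the 18 acinar markers was subtracted on each array, Pnliprp2 stood at 2.54, 2.16 and 2.14 in mTR-/-G4 samples a, b and c, against 1.36, 1.08 and 0.94 in wild-type samples a, b and c. Its rise thus exceeded that of the marker mean by 1.15, and the genotypes did not overlap. Pla2g1b likewise stood at 0.70, 1.08 and 0.64 in mTR-/-G4 samples, against 0.16, -0.02 and -0.34 in wild-type samples a, b and c, a difference of 0.88 with no overlap. Clps went the other way, at 1.56, 2.07 and 2.22 in mTR-/-G4 samples and 2.22, 2.44 and 2.39 in wild-type samples, a difference of -0.40. With all 18 markers in the mean, Pnliprp1 (0.02) and Cel (0.19) overlapped between genotypes, as did Clps. No test was run on these differences, and the share of all genes without overlap after the same subtraction was not counted. The subtracted mean itself differed by 1.48 between genotypes, so a gene without a change would come out lower. Without the 4 transcription factors in the mean the differences were 0.80 for Pnliprp2, 0.52 for Pla2g1b and -0.75 for Clps, while Pnliprp1 (-0.33) and Cel (-0.16) changed sign. Whether samples overlap under that mean is not given here and can differ from the statements above. Probes differ in brightness, so only the change between genotypes is read from these values.

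**Figure D3:**
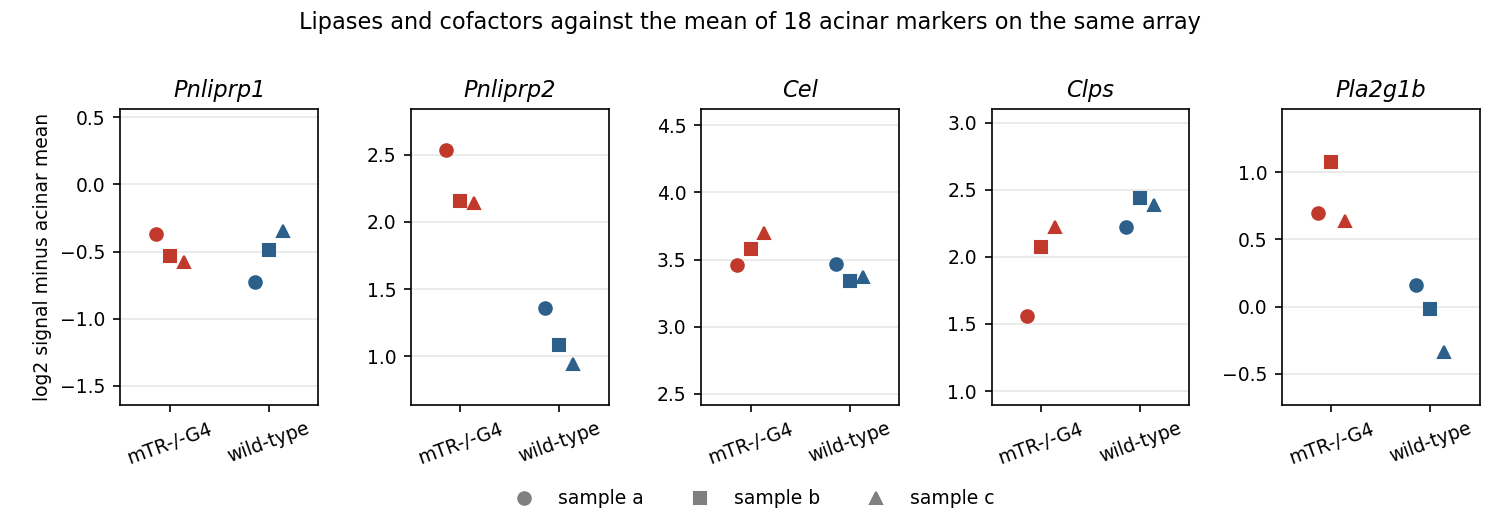
Log2 signal of each lipase gene minus the mean of 18 acinar markers on the same array, in mTR-/-G4 samples (red, left) and wild-type samples (blue, right), each panel with its own range of equal height. The genotypes are apart for Pnliprp2 (difference 1.15) and Pla2g1b (0.88), whereas those of Pnliprp1, Cel and Clps overlap.

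The members were also compared with each other on the same array. The log2 signal of Pnliprp2 minus that of its neighbour Pnliprp1 was 2.91, 2.69 and 2.73 in mTR-/-G4 samples a, b and c, and 2.08, 1.57 and 1.29 in wild-type samples a, b and c. Of the 10 pairs, Pnliprp2 relative to Clps changed the most, by 1.55, and that of Pla2g1b relative to Clps by 1.27. Pnliprp2 and Pla2g1b rose by amounts that were close, with a difference of 0.28 and overlapping samples, as did Cel and Pnliprp1 with 0.16. These within-array differences are given without a test.

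Pnlip, Pnliprp1 and Pnliprp2 lie next to each other on chromosome 19, whereas Cel is on chromosome 2, Clps on 17 and Pla2g1b on 5. In the RefSeq order of GRCm38.p6, 3 measured genes on each side of these 4 loci and those between were compared, a choice made after values had been seen. Of the 26 measured neighbours 2 rose, 0 fell and 24 did not pass, where 1.94% of all genes rose and 1.64% fell. Both that rose are long non-coding RNAs at the lipase cluster of chromosome 19. 1810018F18Rik, between Pnlip and Pnliprp1, was at 7.39, 6.78 and 6.52 in mTR-/-G4 samples a, b and c, against 5.76, 5.46 and 5.37 in wild-type samples a, b and c, a 2.58-fold rise (95% interval 1.77 to 3.75; limma, unadjusted p = 0.000534, adjusted p = 0.0933). 1810007D17Rik, on the other side of Pnlip, was at 7.64, 6.27 and 6.09 in mTR-/-G4 samples, against 5.73, 4.84 and 4.80 in wild-type samples, 2.92-fold higher (95% interval 1.42 to 5.98; limma, unadjusted p = 0.00956, adjusted p = 0.149). As for the lipases, sample a was the highest of both genotypes and no mTR-/-G4 sample was below a wild-type one. 1810035K13Rik, which also lies between Pnlip and Pnliprp1, did not pass at 1.16-fold (unadjusted p = 0.224 by limma). Clpsl2, a colipase-like gene beside Clps, did not pass at 1.27-fold (unadjusted p = 0.0132 by limma).

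**Figure D4:**
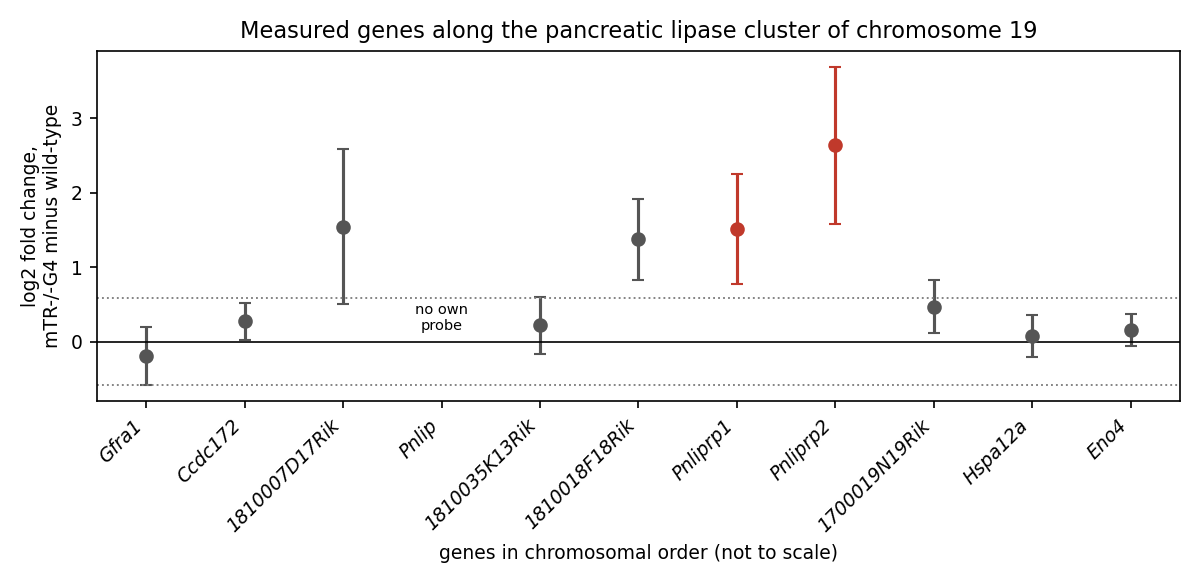
Log2 fold change, mTR-/-G4 minus wild-type, with its 95% interval by limma, of the measured genes along the pancreatic lipase cluster of chromosome 19 in chromosomal order, not to scale, with the members in red and 1.5-fold dotted. Pnliprp1, Pnliprp2 and the non-coding 1810007D17Rik and 1810018F18Rik are higher, the other 6 measured genes lie between the dotted lines, and Pnlip has no probe of its own.

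Lipases of other tissues and compartments did not pass the threshold in either direction. In the wider lipase gene family 5 of 6 genes were measured, with log2 fold changes from 0.02 to 0.41. Its Lpl, the lipoprotein lipase of capillary walls, was at 7.12, 7.34 and 7.13 in mTR-/-G4 samples a, b and c, and at 6.84, 6.92 and 7.03 in wild-type samples a, b and c. On a dimmer second probe of Lpl the fold was 0.999. The 6 acid lipases, which include gastric lipase (Lipf) and lysosomal acid lipase (Lipa), ranged from -0.25 to 0.39. Of 10 other secreted phospholipases A2 9 were measured, and none passed, with a range of -0.10 to 0.39 and a median of 0.21. Many of these probes were dim, below the median of all probe means for 4 of the 5 family members, 4 of the 6 acid lipases, 6 of the 9 phospholipases and all 5 measured carboxylesterases. At such levels the arrays may not register a change, so a value near 0 does not show that a gene was unchanged. The 7 measured intracellular glycerol lipases ran from -0.48 for Mgll, monoglyceride lipase, to 0.46 for Abhd6, another monoacylglycerol lipase. The other own probes of Abhd6 had -0.19, 0.10 and -0.10 and do not bear out a rise. The 5 carboxylesterases had a median of 0.23. The 8 genes listed as cofactors and chaperones of other lipases, such as Lmf1 and Gpihbp1, had a median of 0.02. That list includes Pnpla2, itself a lipase and also counted among the intracellular glycerol lipases.

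Receptors that trigger enzyme secretion from acinar cells were examined beside the enzymes. Among 7 receptors, all measured, 1 rose, 1 fell and 5 stayed within the threshold. The receptor for cholecystokinin, Cckar, was at 8.56, 6.99 and 6.59 in mTR-/-G4 samples a, b and c, against 5.68, 5.10 and 5.46 in wild-type samples a, b and c. It was higher by 1.96 (SE 0.48; limma, adjusted p = 0.128). Chrm3, the muscarinic receptor found on acinar and β-cells, was lower at 6.35, 6.06 and 6.16 in mTR-/-G4 samples, against 6.77, 7.25 and 7.72 in wild-type samples, a log2 fold change of -1.06 (SE 0.23; limma, adjusted p = 0.116).

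By the Pearson r with the mean of the 5 members over the 6 arrays, the genes most like them were Reg1 (0.9988), Dmbt1 (0.9971), Cpb1 (0.9969), Cpa1 (0.9965), Lyar (0.9957), Reg3d (0.9947), Gm5620 (0.9944), Fosl1 (0.994), Has3 (0.9928) and Ctrl (0.9928). Of these 10 genes Cpb1, Cpa1 and Ctrl, which encode pancreatic proteases, are on the acinar list. Reg1, a secreted lectin of the Reg family, was at 12.59, 11.72 and 11.16 in mTR-/-G4 samples a, b and c, and at 9.66, 8.41 and 7.99 in wild-type samples a, b and c. Lyar, Gm5620, Fosl1 and Has3 had log2 fold changes of 0.16 to 0.35 and did not pass, and sample a was the highest of both genotypes in these genes too. The likeness was chosen from these arrays and is a description.

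The genotypes were also compared on 15 measured islet endocrine markers, of which 0 passed in either direction (median log2 fold change -0.10). Their probes were brighter than 86.1% to 100% of all probes. Smaller shifts ran from -0.35 for Isl1 to 0.23 for Pyy. Nkx6-1 (-0.33) and Pcsk1 (-0.19) were lower without overlap, and 0 markers were higher without overlap, as 25.0% of all genes were. The share of all genes lower without overlap is not given here, so nothing is read from those lower markers. The mean signal of the 15 markers was 11.03 to 11.16 in mTR-/-G4 and 11.15 to 11.29 in wild-type samples. Of 7 measured duct markers 1 rose, Muc1, an epithelial mucin, by 0.98 (SE 0.39), and the list mean was 5.08 to 5.52 in mTR-/-G4 and 4.73 to 5.36 in wild-type samples. Of 8 endothelial markers 3 were lower (median -0.41), and none of the measured leukocyte, stellate or adipocyte markers passed. The telomerase RNA gene shares its only probe with a second gene, so the knockout was not checked. The interquartile range of log2 signal was 2.05 to 2.56 in mTR-/-G4 and 2.63 to 2.79 in wild-type arrays, and correlations of all probes between arrays ran from 0.951 to 0.989. The part of these differences in the rise of the lipases was not tested.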

How the data were processed

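Total RNA (RNeasy) of purified islets was hybridized to Mouse Exon 1.0 ST arrays. The authors extracted the arrays and normalized them together by Robust Multichip Analysis in Partek (version not given in the sources used here) and deposited log2 signals, which were used as they stand. The table holds 34502 transcript clusters, called probes. The build in the submitters' processing notes is mm9; coordinates of the table were not used. Symbols came from the platform annotation, in which 25362 probes have 1 symbol, 2238 several and 6902 none listed, and older symbols were matched through RefSeq (GRCm38.p6), which also gave gene order and promoter sequences.

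Probes listed for several genes were left out, and where a gene had several own probes the brightest, by the mean of 6 arrays, stood for it. Genotypes were compared by limma 3.58.1 (lmFit and eBayes, unpaired, no filter on dim probes, prior degrees of freedom 3.14) in R 4.3.3, at the threshold of the methods (more than 1.5-fold, unadjusted p under 0.05). P-values were also adjusted by Benjamini-Hochberg over the whole table. The fit was tested on simulated data with independent noise, alike on all arrays, which does not cover genes that vary together or arrays that differ in spread. Each sample was taken as 1 mouse, as a legend of the study counts mice. Precision is limited by having 3 arrays per genotype. No 2 arrays held identical values.

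The genes named are the 6 members, up to 4 genes with the largest change among those past the threshold in each list, and the 10 genes most like the members. Others (lipases named with a range or a role, 4 transcription factors, neighbours) were named after their values were seen. The members and lists were chosen with earlier results of these data known. The alternatives tried were quantile normalization again, the methods' t-test, array medians set equal, brighter probes, 1 probe per gene, the mean of own probes, another variance prior, sample weights, other thresholds, a block by letter, the acinar mean as covariate, the marker mean without transcription factors, and each sample left out.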

Additional observations from a re-analysis of the deposited data

How the results depend on the processing

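Each member was compared under 17 alternatives, 85 combinations in all. The direction was kept in all 85 and the call in 80. Since each member had 1 probe and its genotypes did not overlap, most alternatives could not reverse the direction. The other 5 calls were lost with the acinar mean as a covariate, where 0 members passed and their median log2 fold change was 0.27. By that fit 1 acinar marker passed as higher, and of all 34502 probes 1059 were higher and 1042 lower. For the markers the drop was largely set in advance, since the covariate is their own mean. The covariate was higher in every mTR-/-G4 sample (8.38 to 9.38) than in every wild-type sample (7.02 to 7.94), and it also varied within each genotype. The cause of the loss was not tested. At an adjusted p under 0.05 in place of the unadjusted p, 0 members and 0 acinar markers passed by limma, against 5 and 15 at the unadjusted p and 5 and 14 by the methods' t-test. Of the 17 alternatives 3 gave members an adjusted p under 0.05: the replicate block by letter 4 members (0.00257 to 0.0501 over the 5; 0.525% of all probes), sample weights 5 (0.00867 to 0.019; 35.1%) and leaving out sample a of both genotypes 2 (0.0387 to 0.0616; 0.333%). Other alternatives raised it above the 0.0933 to 0.109 of the main limma fit. The members' adjusted p was 0.247 to 0.253 by the methods' t-test and 0.304 to 0.326 by limma without wild-type sample b. With the acinar covariate in limma it was 0.708 to 0.873. Without the covariate the log2 fold change ran from 0.98 to 1.78 for Pnliprp1, 2.02 to 3.05 for Pnliprp2, 1.32 to 2.0 for Cel, 0.87 to 1.32 for Clps and 1.69 to 2.77 for Pla2g1b. When each sample was left out in turn, 5 members passed each time, 14 to 15 acinar markers were higher, and the difference of the acinar mean was 1.21 to 1.78 (exact permutation p = 0.2, the smallest then possible). Without sample a of both genotypes, an alternative chosen after seeing the data, 5 members passed with a median of 1.79. With the sample letter as a replicate block, 5 members passed with a median of 1.67 and 15 acinar markers were higher, and 1013 probes were higher and 1388 lower, against 904 and 1244 without it. Over all probes, deviations of samples of the same letter had a correlation of 0.0429, -0.160 and 0.113, and those of unlike letters -0.172 to 0.137. Such values cannot show whether the letters pair the samples for a small set of genes. The block lowered the SE of Pnliprp2 from 0.45 to 0.13, and sample a was the highest of both genotypes for all 5 members. Whether the letters pair the samples was not settled. Centring each array on its median moved the median of all probes to 0.0066 and the split to 523 higher and 1695 lower, and the members' median to 1.57. With sample weights, whose estimation stopped before it converged, 13 acinar markers were higher. Cel relative to the acinar mean was 0.29 after quantile normalization, and 0.19 without it.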

Other observations

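Some secreted proteins outside the acinar list followed the lipases. Dmbt1, a secreted glycoprotein of epithelia, was at 12.53, 11.60 and 11.20 in mTR-/-G4 samples a, b and c, against 10.35, 9.08 and 9.02 in wild-type samples a, b and c, a log2 fold change of 2.29. Reg3d, a secreted lectin of the Reg family, was at 11.09, 9.60 and 8.63 in mTR-/-G4 samples, against 6.30, 4.97 and 4.55 in wild-type samples, a log2 fold change of 4.50. In both genes sample a was the highest of its genotype and sample c the lowest, the order of the members' mean. Both were picked for their likeness to that mean on these same arrays, so the shared order was largely set by the choice.

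Among the acinar transcription factors, Rbpjl was at 7.0, 5.45 and 5.01 in mTR-/-G4 samples a, b and c, and at 4.79, 4.36 and 4.61 in wild-type samples a, b and c. Bhlha15, also called Mist1, was at 8.23, 7.83 and 8.45 in mTR-/-G4 samples, against 8.59, 8.79 and 8.95 in wild-type samples, with no overlap and the mTR-/-G4 samples lower. Ptf1a, the partner of Rbpjl in PTF1, was at 3.93, 3.87 and 3.67 in mTR-/-G4 samples and at 3.64, 3.60 and 3.65 in wild-type samples, and Nr5a2 was at 4.66, 4.52 and 4.28 in mTR-/-G4 samples and at 4.49, 4.23 and 4.19 in wild-type samples. Endothelial receptors were lower: Flt1, a VEGF receptor, had a log2 fold change of -0.71 (SE 0.18), Tek, the angiopoietin receptor, -0.70 (SE 0.25) and Kdr, a VEGF receptor, -0.66 (SE 0.19).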
